A study of Pyrus x bretschneideri with 2 samples.

Results

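The genes described here are the MATE efflux and WAT1-related transporters of pear fruit that carried a protein description in the deposited data. They were chosen by text: a best protein database hit containing "MATE efflux", "TRANSPARENT TESTA 12", "DETOXIFICATION" or "WAT1-related". The rule found 6 of the 381 described genes, out of 45022 genes with expression values. Of these 6, 3 matched "MATE efflux", 1 matched "TRANSPARENT TESTA 12", 0 matched "DETOXIFICATION" and 2 matched "WAT1-related", which gives 4 MATE genes and 2 WAT1-related genes. Only genes that the authors called different between the libraries were described, so each of the 6 was chosen through the contrast reported below. The values are therefore a description, with no test. Family members that were not called could not be found by name and are not counted.

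The fruit were of Pyrus x bretschneideri, the Chinese white pear. The water group received sterile distilled water and was the control, and the yeast group received cells of Meyerozyma guilliermondii, a yeast studied for the biological control of fruit rots. Both groups were held for 3 days at 20 °C, and RNA came from the tissue surrounding the wounds. Each group had 1 library, so no difference has a replicate check and no standard deviation or p-value could be computed. The labels used here do not name a cultivar, the number of fruit or whether fruit were pooled. The tissue could not be checked against defining markers, since uncalled genes have no description.

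MATE proteins (multidrug and toxic compound extrusion) are membrane antiporters that export organic molecules from the cytoplasm, out of the cell or into the vacuole, in exchange for protons or sodium ions. In plants their substrates include flavonoids, alkaloids, citrate and hormones. TRANSPARENT TESTA 12 of Arabidopsis, a vacuolar MATE protein of the seed coat, loads flavonoid precursors of the seed coat pigment into the vacuole. WAT1-related proteins belong to the drug and metabolite transporter superfamily and carry EamA domains. The founding Arabidopsis member, WALLS ARE THIN 1, exports auxin from the vacuole and is needed for secondary wall thickening in fibres, while several of its relatives move amino acids across membranes. The substrates of the pear proteins are not known from the files.

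The 2 families stood on opposite sides. Both WAT1-related genes were higher in the yeast library, at 22.7 and 46.4 FPKM (fragments counted per kilobase of gene, relative to library size) against 1.77 and 3.55 in the water library. All 4 MATE genes were lower in the yeast library, at 0.0373 to 0.327 FPKM against 1.29 to 5.13. The authors' deposited table calls 0.846% of all genes in the expression table different, 0.318% higher with the yeast and 0.529% lower. The choice of members from that table fixes that every one of them is called, so nothing is read from these counts. Of the 381 called genes 37.5% were called higher and 62.5% lower, and the table holds no absolute log2 fold change under 2.66 and no adjusted p-value (FDR) over 0.00994. In bulk tissue, fewer cells expressing a gene and less RNA per cell cannot be told apart.

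**Figure D1:**
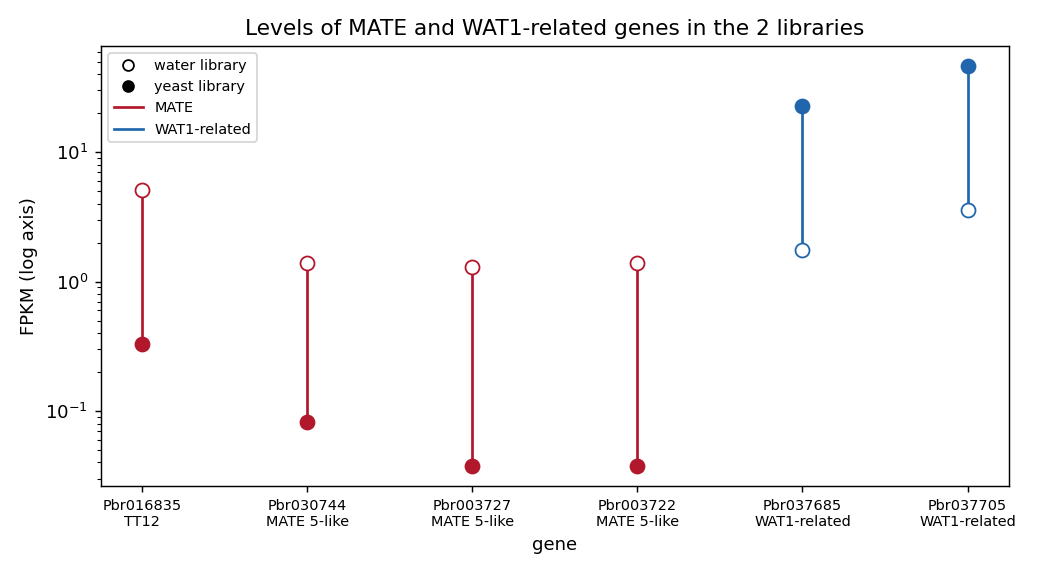
FPKM of the 6 genes on a log axis, with an open circle for the water library, a filled circle for the yeast library and a line joining them, 1 library per group. The blue WAT1-related genes end at 22.7 and 46.4 FPKM with the yeast, and the red MATE genes end at or below 0.327 FPKM.

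The WAT1-related gene Pbr037705 had 3.55 FPKM in the water library and 46.4 FPKM in the yeast library. Its relative Pbr037685 had 1.77 FPKM with water and 22.7 FPKM with the yeast. Both genes have the same best hit, a WAT1-related protein At3g28050-like of pear, and the same Swiss-Prot hit, the Arabidopsis protein At3g28050. They also share the EamA-like transporter family domain and the annotation of transmembrane transporter activity in the membrane.

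The proportion between the pair was nearly the same in both libraries. Pbr037705 stood at 2.01 times the FPKM of Pbr037685 with water and at 2.04 times with the yeast, and made up 66.7% and 67.2% of their summed level. The fold of the yeast over the water library was 13.1 for Pbr037705 and 12.8 for Pbr037685. The authors' deposited table gives log2 fold changes of 3.67 (FDR 9.6e-05) and 3.70 (FDR 8.13e-05), 0.025 apart. Whether the genes share reads cannot be told from the files, so their levels are uncertain as separate genes.

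Of all 45022 genes, 65.4% had a lower FPKM than Pbr037705 with water and 93.6% with the yeast. For Pbr037685 these shares were 57.8% and 87.9%. Both genes thus stood somewhat above the middle of the whole table with water and in its upper part with the yeast. These shares include genes at 0, which numbered 16358 with water and 16617 with the yeast. Among the 143 genes called higher, whose median level with the yeast was 5.89 FPKM, Pbr037705 was the 23rd and Pbr037685 the 40th most abundant in the yeast library.

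On the scale log2((yeast FPKM + 1)/(water FPKM + 1)), which draws the ratios of low genes towards 0, Pbr037705 stood at 3.38 and Pbr037685 at 3.10. Among the 22603 genes that reached 1 FPKM in at least 1 library, 22 had a ratio as high as the first or higher, itself included, and 29 as high as the second. At least 2-fold higher on this scale were 3.32% of these genes. The pair was chosen from genes called different between these libraries, so a place far from 0 follows in part from that choice. In the authors' deposited table, by contrast, the pair ranks only 69th and 68th by log2 fold change among the 143 genes called higher. Of the genes above the pair in that order, 35 were listed at 0 FPKM with water.

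The most abundant MATE gene was Pbr016835, described as protein TRANSPARENT TESTA 12. It had 5.13 FPKM in the water library and 0.327 FPKM in the yeast library, a 15.7-fold lower level. The authors' deposited table gives it a log2 fold change of -3.84 (FDR 0.000119). It is also the only one of the 4 MATE genes whose domain annotation lists a polysaccharide biosynthesis C-terminal domain beside the MatE domain. The hit carries this name because of sequence likeness, and no transport of flavonoids by the pear protein was measured.

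The other 3 MATE genes share 1 description, MATE efflux family protein 5-like, and the same Swiss-Prot hit, an Arabidopsis MATE efflux family protein 5. Pbr030744 had 1.39 FPKM with water and 0.0827 FPKM with the yeast. Pbr003722 had 1.39 FPKM with water and 0.0373 FPKM with the yeast. Pbr003727 had 1.29 FPKM with water and the same 0.0373 FPKM with the yeast. With water the 3 genes lay within 1.08-fold of each other, and the TRANSPARENT TESTA 12 gene stood 3.69-fold above the highest of them.

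With the yeast all 3 were close to the bottom of the measured range. Of the 28405 yeast values above 0, 4.89% were below that of Pbr030744 and 1.67% below the value shared by Pbr003722 and Pbr003727. Over all genes, those at 0 included, these shares were 40.0% and 38.0%. Folds of the water over the yeast library were 16.8, 37.2 and 34.6 for Pbr030744, Pbr003722 and Pbr003727. The authors' deposited table gives them log2 fold changes of -4.13 (FDR 0.000192), -4.80 (FDR 1.43e-05) and -4.74 (FDR 1.91e-05). The number of reads behind values this low is unknown here, and the folds carry no interval.

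Pbr003722 and Pbr003727 were the only 2 genes of the table with their yeast value to all deposited digits, and their water values differed 1.07-fold. They have 1 description between them and near identifiers, and whether they share reads is not known here. Their levels are therefore uncertain as separate genes, and so is the count of 4 MATE genes.

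On the log2(FPKM + 1) scale the TRANSPARENT TESTA 12 gene Pbr016835 stood at -2.21, with 154 of the 22603 genes as low or lower. The 3 protein 5-like genes stood between -1.20 and -1.14, just past the 2-fold line, with 483 to 536 genes as low or lower. At least 2-fold lower on this scale were 3.00% of the genes. The median of the 4 MATE genes was -1.17 and that of the WAT1-related pair 3.24, beside a median of 0.0052 over all 22603 genes. All members were chosen from genes called different between these libraries. Their distance from the median of all genes follows in part from that choice, and nothing is read from it. Which of the 2 sets of called genes differed more depends on the scale, and uncalled members are not seen, so the families themselves are not ranked. By plain FPKM folds the MATE genes (15.7-fold to 37.2-fold) were further apart between the libraries than the WAT1-related pair (12.8-fold and 13.1-fold), and with the pseudocount of 1 FPKM the order turned.

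**Figure D2:**
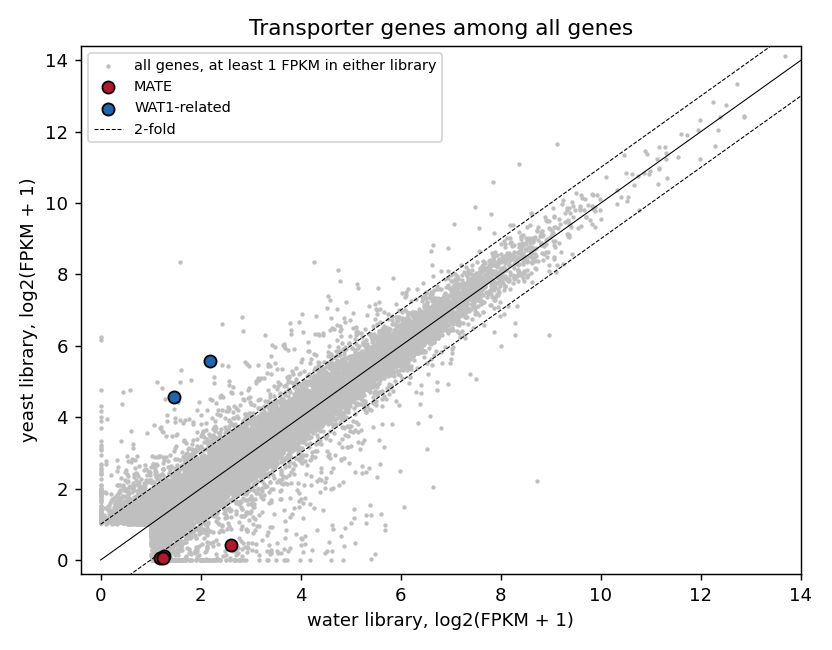
Levels of 22603 genes as log2(FPKM + 1), with the water library on the horizontal and the yeast library on the vertical axis, 1 library per group; dashed lines mark 2-fold. The WAT1-related pair (blue) lies well above the upper dashed line, at log2 ratios of 3.10 and 3.38, while 3 of the 4 MATE genes (red) lie just below the lower line, at -1.20 to -1.14.

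Because FPKM is per gene length, levels can be added and compared across genes that do not share reads. Whether Pbr003722 and Pbr003727, or the WAT1-related pair, share reads is not known here, so the sums below are uncertain. The 4 MATE genes summed to 9.19 FPKM with water and 0.485 FPKM with the yeast, 19.0-fold lower. The WAT1-related pair summed to 5.32 FPKM with water and 69.1 FPKM with the yeast, 13.0-fold higher. The called MATE genes together were thus 1.73 times the level of the WAT1-related pair in the water library. In the yeast library the pair was 143 times the level of the MATE genes, a ratio that rests on the low MATE sum of 0.485 FPKM. The TRANSPARENT TESTA 12 gene supplied 55.8% of the MATE sum with water and 67.5% with the yeast.

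In the water library the order of levels was Pbr016835, Pbr037705, Pbr037685, Pbr030744, Pbr003722 and Pbr003727. In the yeast library the WAT1-related pair came first, Pbr037705 before Pbr037685, followed by Pbr016835, Pbr030744 and the tied pair Pbr003722 and Pbr003727. The order within each family was the same in both libraries, apart from that tie. With 1 library per group there is no spread against which neighbours in the order could be judged, and Pbr030744 and Pbr003722 were nearly equal with water.

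The annotation classes of the members were shared with few other called genes. The deposited COG class for defense mechanisms held 6 called genes, 0 higher and 6 lower, beside 62.5% lower among all called genes. Of the 6, 4 are the MATE genes reported above, which were chosen from the called genes. Only 2 others add to that count, both ABC transporters, which are pumps driven by ATP. Drug transmembrane transport and antiporter activity were each annotated to the 4 MATE genes alone and so say nothing further on direction. Transmembrane transport was annotated to 4 called genes, 2 higher and 2 lower, and the higher ones were the WAT1-related pair. Integral membrane component was annotated to 33 called genes, 15 higher and 18 lower, and included all 6 transporters. The EamA-like domain of the WAT1-related pair occurred in 4 called genes, 2 higher and 2 lower. The lower ones were glucose-6-phosphate/phosphate translocator 2 genes, of the plastid membrane family that imports glucose phosphate (Pbr031862, 4.02 FPKM with water and listed at 0 with the yeast; Pbr032438, 1.32 FPKM and listed at 0). The direction of the pair was thus not that of all called genes with this domain.

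Other transporter lists gave few called genes, and only called genes could be matched. The ABC list was 0 higher and 2 lower. A G family member 35-like gene, of the pleiotropic drug resistance type, had 26.1 FPKM with water and 3.27 FPKM with the yeast (Pbr019124), and a B family member 11-like gene had 7.19 and 0.208 FPKM (Pbr037777). The list of sulphate, phosphate and other anion transporters was 2 higher and 3 lower, and without genes listed at 0 in a library it was 0 higher and 1 lower. Its higher genes were both described as sulfate transporter 1.2, a root uptake carrier in Arabidopsis (Pbr011127, listed at 0 with water and 0.760 FPKM with the yeast; Pbr021842, listed at 0 and 0.396 FPKM). Its lower genes were the translocators above and a PHO1 homolog 3-like gene, of a family that exports phosphate (Pbr029913, 9.30 and 0.327 FPKM). The translocators entered this list only through the domain name Triose-phosphate Transporter family. The amino acid transporter list held 1 lower gene, cationic amino acid transporter 7 (Pbr033381, 0.636 FPKM with water and listed at 0 with the yeast). The single match of the metal list was a bZIP transcription factor, caught by the letters ZIP in its domain description and not a transporter. The lists of nitrate and peptide, sugar, aquaporin, and purine and other metabolite transporters matched 0 called genes. For the purine and metabolite list this 0 is a matter of spelling. Its pattern for triose phosphate had no hyphen and so missed the domain name of the translocators.

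**Figure D3:**
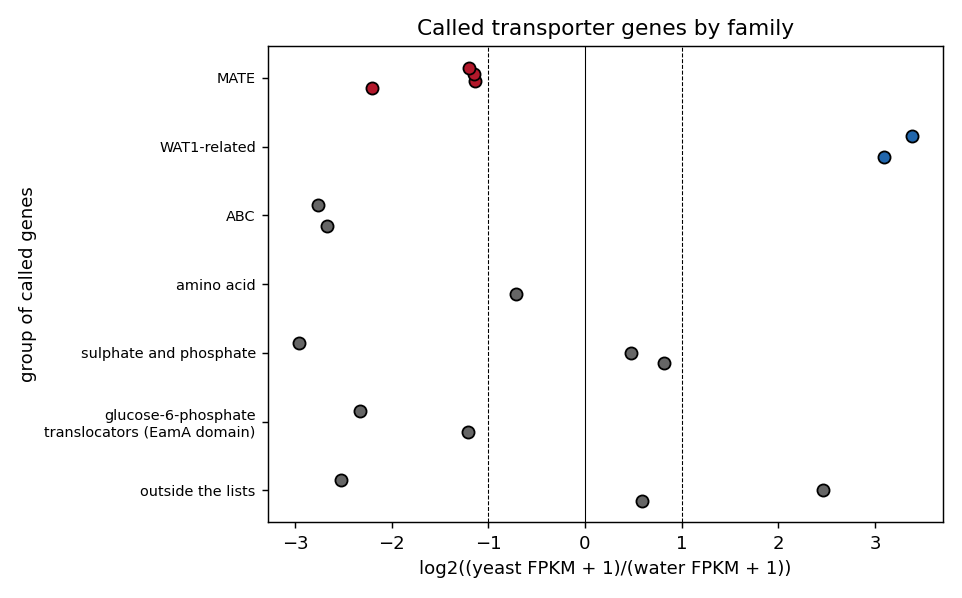
log2((yeast FPKM + 1)/(water FPKM + 1)) of called transport genes by group, 1 point per gene and 1 library per group; dashed lines mark 2-fold, and the bottom group holds genes found by annotation outside the lists. The WAT1-related genes stand at 3.10 and 3.38, the cystinosin homolog gene of the bottom group at 2.46, and the other points above 0 stay within the dashed lines.

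A pair of further lists followed the substrates of the founding proteins. The auxin list, for the substrate of WALLS ARE THIN 1, was 1 higher and 1 lower: the auxin-induced ARG7-like gene Pbr026939 (1.78 FPKM with water and 14.8 FPKM with the yeast) and a gene described as IAA-amino acid hydrolase ILR1-like 4, whose enzyme family frees auxin from its conjugates (Pbr039194, 2.79 and 0.0540 FPKM). The flavonoid list was chosen with the substrate of TRANSPARENT TESTA 12 in mind, but its patterns were general flavonoid terms. Its counts are therefore not counts of the route to that substrate. The list was 1 higher and 16 lower, beside 62.5% lower among all called genes. It was 1 higher and 11 lower when only the best-hit description was read. Without genes listed at 0 in a library it was 1 higher and 12 lower. One of those left out, the flavonol synthase 3-like gene Pbr003487, was listed at 0 FPKM in both libraries although the authors' deposited table calls it lower, at a log2 fold change of -5.09 (FDR 6.85e-08). The gap between the best-hit count and the whole list is 5 synthases of biphenyls and 4-hydroxycoumarin that share a chalcone synthase domain. Among them are the list's most abundant genes, Pbr027910 (47.8 FPKM in the water and 1.45 in the yeast library) and Pbr027907 (44.0 and 0.128), followed by the flavonol synthase 3-like gene Pbr003486 (38.6 and 1.40). The median log2 ratio was -2.56 over the 17 genes and -2.52 over the 12 by best hit, with Pbr003487 entered at 0 in both. Several of the lower genes are flavonol synthase 3-like genes with near identifiers (Pbr003484 to Pbr003488 and Pbr003492). Some of these have protein SRG1 as their Swiss-Prot hit. Whether they share reads is not known here, so the lower genes cannot be counted as independent of each other. Whether these genes and the TRANSPARENT TESTA 12 gene are linked was not tested. The leucoanthocyanidin dioxygenase gene, of anthocyanidin synthesis, had 1.23 FPKM with water and was listed at 0 with the yeast (Pbr010910). The list's only higher gene, described as a bifunctional dihydroflavonol 4-reductase/flavanone 4-reductase, went the other way. It had 0.151 FPKM with water and 2.17 FPKM with the yeast (Pbr005931).

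Genes with identifiers between those of the members were read as a check on whether a whole stretch of the table moved. Their place on chromosomes is not known here. Between Pbr037685 and Pbr037705 lie 19 identifiers, of which 7 were listed at 0 in both libraries and 12 reached 1 FPKM. None of the 19 was called, beside 0.846% of all genes. The log2 ratios of the 12 ran from -1.32 to 0.22, so none was at least 2-fold higher, beside 3.32% of the 22603 genes. At such shares, finding none among so few genes is usual and marks nothing particular to this stretch. The values show only that these 12 did not rise with the WAT1-related pair. Of the 12, 4 were at least 2-fold lower with the yeast, by 2.67-fold to 3.46-fold in plain FPKM, beside 3.00% of all 22603 genes, and these have no description in the files (Pbr037690, Pbr037692, Pbr037697 and Pbr037699). Between Pbr003722 and Pbr003727 lie 4 identifiers, 2 of them at 0 in both libraries. The others, Pbr003724 and Pbr003725, had log2 ratios of -0.32 and -0.41.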

How the data were processed

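RNA-seq of 2 libraries, 1 per group, was analysed. The authors deposited FPKM values for 45022 genes and a table of their own comparison with 381 called genes. Per the file headers, that table holds log2 fold changes (yeast over water) and adjusted p-values (FDR), which compare 2 libraries and not treatments. The submitters' processing notes name Bowtie 0.12.2. Not given in the sources used here are the counter, build, annotation, comparison tool and scaling.

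Sample titles tie the columns to the groups. Ratios were log2((yeast + 1)/(water + 1)) on FPKM for genes reaching 1 FPKM in at least 1 library. A 2-fold size rule was used because 1 library per group allows no test. It was tried on simulated counts with sampling noise alone, changing only genes that averaged at least 5 FPKM. Every MATE gene averaged less over the 2 libraries, and no spread between fruit was simulated. The trial therefore does not show how reliable the rule is for these genes. Python 3.11.15 and pandas 2.3.3 were used. Every member is named, with at most 3 genes per list by largest level. Outside this rule are the sulfate transporter genes, the leucoanthocyanidin dioxygenase, the dihydroflavonol 4-reductase and the flavonol synthase 3-like genes other than Pbr003486. The translocators, these flavonoid genes and the identifier neighbours were named after their values were seen. The members, the 10 lists and their patterns were chosen with earlier results of these data known.

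Read totals are unknown. The FPKM summed to 692635 with water and 748043 with the yeast. Among 2985 genes below 0.5 FPKM, the commonest ratio was held by 56 genes. If those genes had equal read counts in both libraries, the depth was 1.05 times as high in the water library. That assumption could not be checked. The authors' deposited log2 values differed from plain log2 FPKM ratios of the 6 members by -0.065 to 0.42. No sequences or coordinates are printed, since the reference table does not carry these identifiers.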

Additional observations from a re-analysis of the deposited data

How the results depend on the processing

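No alternative tried could change the direction of a member, so the unchanged directions are no check. A pseudocount keeps the sign of a difference, and the scaling of the yeast values was small beside the members' folds. The other alternatives only change which genes are counted. With a pseudocount of 0.1 FPKM the family medians were -3.39 (MATE) and 3.64 (WAT1-related), and with 0.5 FPKM -1.77 and 3.44, against -1.17 and 3.24 as reported. The pseudocount itself sets this, since it draws low values together. With at least 5 FPKM in either library 1 MATE gene was left, Pbr016835, at -2.21, and both WAT1-related genes. With members taken from Swiss-Prot or Pfam descriptions, the WAT1-related group gained 2 lower translocator genes and its median fell to 0.94. Scaling the yeast values by 0.995, which set the median ratio to 0, moved no family count. Dropping the filter on low values could move none by construction, since every member reaches 1 FPKM and no lower gene can pass 2-fold with this pseudocount. Over all genes tested, 750 were at least 2-fold higher and 678 lower as reported, against 1347 and 1100 with the pseudocount of 0.1 FPKM and 470 and 382 with at least 5 FPKM.

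Among the lists, reading the best-hit description alone left 0 higher metal genes and 1 lower anion gene. Counting only genes above 0 FPKM in both libraries, an alternative chosen after seeing the data, left 0 amino acid, 0 metal, 0 higher anion and 1 lower anion genes. No paired analysis was possible because each group has 1 library. The absence of replicates and read totals limits every value, the MATE levels below 0.1 FPKM included.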

Other observations

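Membrane transport genes outside the families and lists were 2 higher and 1 lower among the called genes, picked out by their annotation after the values were seen. A cystinosin homolog gene, of a family of lysosomal and vacuolar cystine exporters, had 0.260 FPKM with water and 5.94 FPKM with the yeast (Pbr032253), and the authors' deposited table lists its log2 fold change as 3.73. A PNS1-like gene with a choline transporter domain (Pbr016858) was listed at 0 with water and had 0.509 FPKM in the yeast library. A mechanosensitive ion channel protein 10-like gene had 5.03 FPKM with water and 0.0464 FPKM with the yeast (Pbr031694), and the authors' deposited table lists -6.38 on the log2 scale.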
